A study of Mus musculus with 4 samples.

Results

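The genes described here encode the Fos, Jun and related bZIP proteins of the transcription factor AP-1, taken by symbol from the deposited expression table. Of 10 genes named (Fos, Fosb, Fosl1, Fosl2, Jun, Junb, Jund, Atf3, Maff and Batf), 9 were matched among the 11603 genes listed, and Batf was not analysed here. Libraries came from hindlimb muscle stem cells of C57BL/6 males, 4 to 5 months old, and comprised 2 of a conditional Hairless (Hr) knockout and 2 controls. The sort gate took VCAM1+ cells lacking CD31, CD45 and Sca1, which leaves out endothelial, blood and fibro-adipogenic cells. Levels are in RPKM, reads scaled by exon length and by library size. The labels name neither the Cre driver nor the animals behind each library, and a p-value here measures library-to-library spread, which may be technical. The series title places the study in heterochromatin maintenance by Hr, a nuclear corepressor, and the comparison asks which transcripts depend on it.

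AP-1 is a dimer that binds DNA through a basic region next to a leucine zipper. Jun proteins pair with each other or with Fos proteins, whereas Fos proteins need a partner. Fos, Jun, Junb and Atf3 are immediate-early genes, switched on within minutes by mitogens, stress and kinase signalling. In muscle stem cells their transcripts are known to accumulate while the tissue is digested to free the cells, a dissociation response that precedes the sort. The labels describe the sort and not the digestion, so its length was not available as a covariate.

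Start regions are shown for the most abundant members because signal-dependent transcription of these genes is read through elements close to the start. Each sequence is RefSeq's window of 250 bases before and 50 bases after the annotated start (build GRCm38.p6), 5′ to 3′, and capitals mark matches to the motifs searched.
Junb promoter, chr8:84978699-84978998, minus strand: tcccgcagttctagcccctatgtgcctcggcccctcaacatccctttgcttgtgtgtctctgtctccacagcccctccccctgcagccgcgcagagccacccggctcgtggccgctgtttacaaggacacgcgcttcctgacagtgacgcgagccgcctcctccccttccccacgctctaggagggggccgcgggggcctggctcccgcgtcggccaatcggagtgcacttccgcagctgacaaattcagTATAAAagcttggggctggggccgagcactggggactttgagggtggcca
Fos promoter, chr12:85473640-85473939, plus strand: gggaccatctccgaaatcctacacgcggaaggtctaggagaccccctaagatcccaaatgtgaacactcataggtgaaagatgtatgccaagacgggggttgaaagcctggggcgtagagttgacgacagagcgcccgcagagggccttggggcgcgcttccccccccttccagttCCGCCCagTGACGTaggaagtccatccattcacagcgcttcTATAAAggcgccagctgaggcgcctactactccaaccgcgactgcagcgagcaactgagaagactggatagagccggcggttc
Jund promoter, chr8:70697489-70697788, plus strand: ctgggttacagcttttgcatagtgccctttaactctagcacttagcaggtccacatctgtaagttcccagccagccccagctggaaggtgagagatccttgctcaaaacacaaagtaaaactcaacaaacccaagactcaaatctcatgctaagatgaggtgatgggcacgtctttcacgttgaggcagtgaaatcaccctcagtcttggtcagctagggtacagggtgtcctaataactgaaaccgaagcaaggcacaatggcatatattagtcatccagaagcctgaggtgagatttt
Jun promoter, chr4:95052173-95052472, minus strand: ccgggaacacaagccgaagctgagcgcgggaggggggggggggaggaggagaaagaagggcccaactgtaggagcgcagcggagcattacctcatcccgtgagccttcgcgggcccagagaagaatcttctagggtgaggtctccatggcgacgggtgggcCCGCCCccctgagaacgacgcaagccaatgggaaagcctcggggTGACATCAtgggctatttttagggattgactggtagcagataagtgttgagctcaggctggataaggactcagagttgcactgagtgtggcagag
Both strands were searched for TGANTCA (the AP-1 site, TRE), for TGACGTCA (the cyclic AMP element, CRE) and for its core TGACGT. The search also took in a CRE-like site of the Jun promoter, written TGACATCA, the TATA box as TATAAA, the Sp1 box as GGGCGG, and the CArG box bound by serum response factor. The core lies within TGACGTCA, so every match to the longer motif is also a match to the core. The Fos window held TATAAA at 33 bases before the start, TGACGT at 66 bases and the reverse of the Sp1 box at 74 bases. The Jun window held TGACATCA at 45 bases before the start and the reverse of the Sp1 box at 89 bases. In Junb the only match was TATAAA, beginning at the annotated start itself, and the Jund window held none of these motifs. Windows were matched for 8 of the 9 genes, Fosl1 being the exception. These 8 genes had 10 windows, Maff having more than 1. A gene was counted when any of its windows held the motif, whereas the shares given beside it are per window. For Maff the full CRE and TGACATCA lay in different windows. Across these 8 genes GGGCGG was found in 6, against 35.7% of all 32851 windows. The CRE core was found in Fos, Atf3 and Maff, against 7.51% of all windows, and the full CRE only in Maff, against 1.79%. TGACATCA occurred in Jun and Maff, against 3.62% of windows, and TATAAA in Fos and Junb, against 13.6%. No member window held TGANTCA or a CArG box, found in 7.81% and 1.63% of all windows. Elements more than 250 bases before the start lay outside the search, so their absence from these genes cannot be concluded. These are matches of letters, and binding was not measured.

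The libraries held 21757211 to 34101213 reads on the listed genes. Each AP-1 gene had 5216 to 120593 reads per library, so counting error was at most 1.38% and the spread between libraries sets the precision. Hr, the targeted gene, had 7.15 and 7.90 RPKM in knockout libraries, against 9.28 and 8.94 RPKM in control libraries (log2 fold change -0.26, limma adjusted p 0.431). These values sum all exons and would not show the deletion of some, so the genotypes rest on the sample labels. Summed muscle stem cell markers (13 of 13 matched, Pax7 and Vcam1 among them) were 6769 and 6843 RPKM in knockout libraries, against 4822 and 4056 RPKM in control libraries. Ptprc, which encodes the sorted-out CD45, stayed at or below 0.0399 RPKM, and Pecam1, which encodes CD31, had 5.51 and 9.66 RPKM in knockout, against 8.04 and 11.9 RPKM in control. Summed myofibre markers (11 of 15 matched) were 69.5 and 60.1 RPKM in knockout libraries, against 186 and 768 RPKM in control libraries. Acta1 alone had 36.5 and 31.9 RPKM in knockout, against 144 and 455 RPKM in control. The median log2 fold change of the 11 was -1.81, and -0.46 without control 2, with 1 positive each time. The stem cell sum was higher in both knockout libraries and the myofibre sum lower, but the stem cell markers were divided, 7 with a positive and 6 with a negative log2 fold change around a median of 0.07. Myod1 (0.92) and Sdc4 (0.78) stood at one end and Itga7 (-0.89) at the other, with Pax7 at 0.07. Summed endothelial markers (10 of 10) were 61.2 and 105 RPKM in knockout, against 85.5 and 114 RPKM in control. Blood cell markers (9 of 13) summed to 13.6 and 21.2 RPKM in knockout, against 19.0 and 18.7 RPKM in control. Summed fibro-adipogenic markers (8 of 10) were 1527 and 1234 RPKM in knockout, against 1599 and 1431 RPKM in control. Smooth muscle and pericyte markers (10 of 10) summed to 1022 and 1058 RPKM in knockout, against 1066 and 1229 RPKM in control, and Schwann cell markers (5 of 7) to 51.2 and 63.3 RPKM in knockout, against 51.4 and 63.2 RPKM in control. Ly6a, which encodes the excluded antigen Sca1, had 77.4 and 80.7 RPKM in knockout, against 47.9 and 49.5 RPKM in control. Ly6a was higher in both knockout libraries, the smooth muscle and pericyte sum was lower in both although 6 of its 10 markers had a positive log2 fold change (median 0.14, Acta2 -1.16), and the endothelial, blood, fibro-adipogenic and Schwann cell sums overlapped. Among the endothelial markers 9 had a negative and 1 a positive log2 fold change (median -0.24), but without knockout 1 their median was 0.11 with 7 positive. The part of other cells in the AP-1 values was not tested.

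AP-1 transcripts were abundant in all 4 libraries, and each of the 9 genes had a higher mean in knockout than in control, by 1.08-fold to 1.83-fold, although Fosb and Jund were lower under the other scaling given below. Such a log2 fold change above 0 was found for 48.2% of all genes, and one below 0 for 51.7%. None of the 9 passed the test over all genes (limma, Benjamini-Hochberg adjusted p from 0.177 to 0.767), where 0 genes of 11603 (0%) were called higher and 1 (0.00862%) lower. At an unadjusted limma p under 0.05, 5 of the 9 were higher (Fos, Fosl2, Junb, Atf3 and Maff) and 0 lower, against 10.3% of all genes higher and 7.69% lower. Both knockout values exceeded both control values for 6 of the 9, these 5 and Jun, against 25.0% of all genes, and the reverse held for 0 of the 9, against 26.2%. The median log2 fold change of the 9 genes, on the log2(RPKM + 0.5) scale used throughout, was 0.45, beside -0.01 for all genes. In bulk RNA, a larger share of cells with AP-1 transcripts and more transcripts per cell cannot be told apart.

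Abundant genes as a whole shared this direction. Among the 737 genes with a mean CPM (RPKM times exon length in kilobases) of at least 299, the mean of Fosl2 as the least abundant member, 58.2% had both knockout values above both control values, and 33.0% were higher at an unadjusted limma p under 0.05. Their median log2 fold change was 0.30, with 80.9% above 0, and 11.1% were called higher in the authors' deposited table. The 6 of 9 AP-1 genes with separated libraries thus stood near the share of genes at least as abundant, a comparison chosen after the values were seen. On the other measures, 5 of 9 were higher at an unadjusted limma p under 0.05 and 9 of 9 were above 0. Their median was 0.45, and 1 of 9 was called higher in the authors' deposited table. No difference from the abundant genes was tested.

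**Figure D1:**
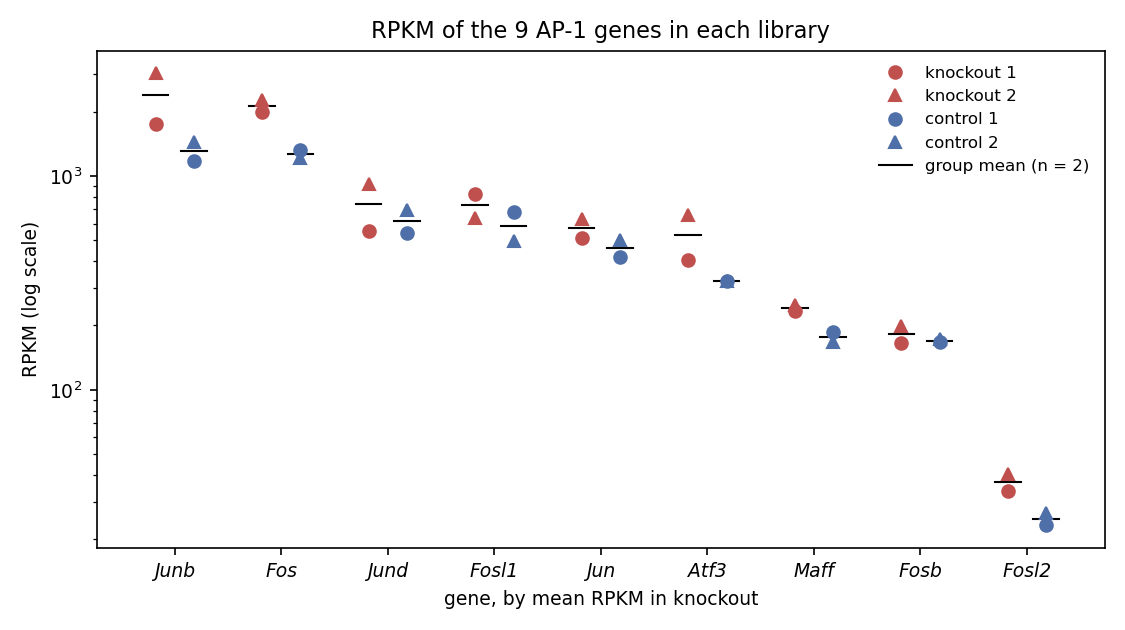
RPKM on a log axis for the 9 AP-1 genes, ordered by their mean in knockout, with each library as a point (circle replicate 1, triangle replicate 2) and the group mean as a bar (n = 2). Knockout points lie above both control points for Junb, Fos, Jun, Atf3, Maff and Fosl2, and the groups overlap for Jund, Fosl1 and Fosb.

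Fos (Entrez gene 14281, chromosome 12, 85473890 to 85477273, plus strand, mm10), the founding member whose protein forms the classical dimer with Jun, had 1986 and 2264 RPKM in knockout libraries, against 1325 and 1214 RPKM in control libraries. The groups were clear of each other, with every knockout-to-control ratio between 1.50 and 1.86. The means were 2125 ± 197 and 1269 ± 78.5 RPKM in knockout and control (SD, n = 2 each), a log2 difference of 0.74 (95% interval 0.29 to 1.19, limma adjusted p 0.177). Its adjusted p in the authors' deposited table was 0.0569.

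Fosb (Entrez gene 14282, chromosome 7, 19302721 to 19310045, minus strand), a paralog that is induced by the same signals, had 166 and 198 RPKM in knockout, against 167 and 172 RPKM in control. Its groups overlapped, and the log2 fold change of 0.10 had a 95% interval of -0.28 to 0.48. The interval allows a difference of either sign, so no direction can be given for Fosb.

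Fosl1 (Entrez gene 14283, chromosome 19, 5447703 to 5455945, plus strand) encodes Fra-1, a Fos relative without a strong activation domain, which follows Fos with a delay in stimulated cells. It had 821 and 640 RPKM in knockout, against 677 and 497 RPKM in control, and knockout 2 lay below control 1. The log2 fold change was 0.32 with a 95% interval of -0.24 to 0.88. It was 0.14 without knockout 1, 0.50 without knockout 2, 0.54 without control 1 and 0.10 without control 2. On the opposite strand, exons of Ccdc85b in GENCODE M21 cover 1162 of the 1707 exon bases counted for Fosl1, and without a stated strand setting reads of the pair cannot be told apart.

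Fosl2 (Entrez gene 14284, chromosome 5, 32135801 to 32157842, plus strand), which encodes the related Fra-2, was the least abundant member. It had 33.6 and 40.2 RPKM in knockout libraries, against 23.2 and 26.5 RPKM in control libraries. The groups did not overlap, and the log2 fold change was 0.56 with a 95% interval of 0.16 to 0.95 at a limma adjusted p of 0.195.

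Junb (Entrez gene 16477, chromosome 8, 84976909 to 84978748, minus strand), whose protein can oppose Jun at shared sites, showed the largest fold among the 9. It had 1756 and 3026 RPKM in knockout, against 1177 and 1439 RPKM in control. Both knockout values were above both control values, but the knockout libraries differed from each other by 1.72-fold. The means were 2391 ± 898 and 1308 ± 185 RPKM in knockout and control (SD, n = 2 each), a log2 fold change of 0.82 with a 95% interval of 0.08 to 1.57 at a limma adjusted p of 0.245. In the authors' deposited table Junb was the 1 member with an adjusted p under 0.05, at 0.0144, where 3.59% of all genes were called higher and 4.26% lower. Without knockout 2 its log2 fold change was 0.43, and without knockout 1 it was 1.22.

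Jun (Entrez gene 16476, chromosome 4, 95049034 to 95052222, minus strand), the partner of every Fos protein, had 515 and 629 RPKM in knockout libraries, against 420.1 and 503 RPKM in control libraries. Knockout 1 lay above control 2 by only 1.02-fold. The log2 fold change was 0.31 with a 95% interval of -0.15 to 0.76 at a limma adjusted p of 0.428. Without knockout 2 it was 0.16, and without control 1 it was 0.18. Exons of the antisense gene Junos cover 232 bases of Jun.

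Jund (Entrez gene 16478, chromosome 8, 70697739 to 70700616, plus strand), the Jun gene that is usually expressed without a stimulus, had 556 and 921 RPKM in knockout, against 544 and 694 RPKM in control. Its groups overlapped, because knockout 1 stood below control 2. The log2 fold change was 0.22 with a 95% interval of -0.48 to 0.92 and reached further below 0 than that of any other of the 9. An antisense gene model, Gm11175, covers 877 of its bases.

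Atf3 (Entrez gene 11910, chromosome 1, 191170296 to 191218039, minus strand), a stress-induced factor that represses many promoters as a homodimer, had 405 and 657 RPKM in knockout, against 322 and 324 RPKM in control. The control values were within 1.01-fold of each other, whereas knockout 2 was 1.62-fold above knockout 1. The log2 fold change was 0.68 with a 95% interval of 0.05 to 1.30 at a limma adjusted p of 0.251. Without knockout 2 it was 0.33, and without knockout 1 it was 1.02.

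Maff (Entrez gene 17133, chromosome 15, 79347541 to 79359072, plus strand) encodes a small Maf protein, which has a leucine zipper but no activation domain. It had 233 and 250 RPKM in knockout libraries, against 187 and 167 RPKM in control libraries. The 4 values separated by group, with a log2 fold change of 0.45, a 95% interval of 0.10 to 0.80 at a limma adjusted p of 0.215.

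**Figure D2:**
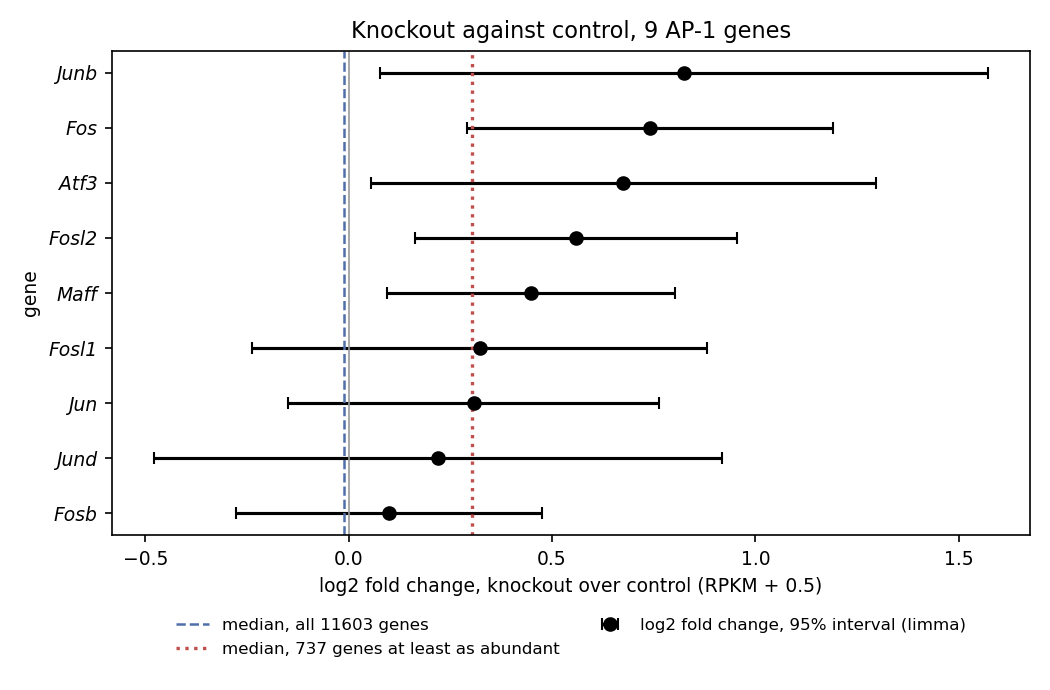
Log2 fold change of knockout over control for each AP-1 gene on the log2(RPKM + 0.5) scale, with 95% limma intervals (2 libraries per group), beside the median of all 11603 genes (dashed) and of the 737 genes at least as abundant (dotted). All 9 points lie above 0, the intervals of Fosl1, Jun, Jund and Fosb include it, and Fosb and Jund are at -0.14 and -0.02 when scaled by the reads listed.

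The direction of 2 genes depended on 1 library or on the scaling. Without knockout 2 the log2 fold changes of Fosb and Jund were -0.03 and -0.14. The authors' library sizes were 75.7% and 75.5% of the reads listed in knockout 1 and 2, and 85.9% and 92.4% in control 1 and 2. With the reads listed as the library size instead, all genes shifted to a median of -0.20, Fosb and Jund had -0.14 and -0.02, and the median of the 9 was 0.21. Fosl1 had 0.08 and Jun 0.07, while Fos, Fosl2, Junb, Atf3 and Maff had 0.50, 0.32, 0.59, 0.44 and 0.21. On that scale 4 of the 9 (Fos, Fosl2, Atf3 and Maff) had both knockout values above both control values, and Junb and Jun no longer did. The share of all genes with separated libraries was not counted on that scale. Whether the lower count is particular to the AP-1 genes was therefore not tested. On the scale of the reads listed, log2 fold changes were above 0 for 7 of the 9 and for 3049 of all 11603 genes. With the authors' library sizes 5595 genes were above 0. A further scaling took the median over genes of the ratio to each gene's geometric mean. It gave a median of -0.01 for all genes, 0.10 for Fosb, 0.22 for Jund and a median of 0.45 for the 9. All 9 were positive there, as were 5667 of all genes.

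By level, the members fell in a similar order in each group. In knockout libraries the order by mean RPKM was Junb, Fos, Jund, Fosl1, Jun, Atf3, Maff, Fosb and Fosl2, and the libraries of Junb and Fos, of Jund and Fosl1, and of Jun and Atf3 overlapped. The order was the same in control libraries, where Junb and Fos, Jund and Fosl1, Fosl1 and Jun, and Maff and Fosb overlapped. Among all 11603 genes ranked by RPKM, Junb was at positions 33 and 16 in knockout libraries, and at 42 and 21 in control libraries. Fos was at 25 and 22 in knockout, and at 32 and 31 in control. Fosl2 lay far below the others, at 2015 and 1723 in knockout and at 2566 and 2279 in control.

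Summed over the 9 genes, AP-1 transcripts reached 6473 and 8625 RPKM in knockout libraries, against 4842 and 5037 RPKM in control libraries. The Fos family of 4 genes summed to 3007 and 3142 RPKM in knockout, against 2192 and 1910 RPKM in control. The Jun family of 3 genes summed to 2827 and 4575 RPKM in knockout, against 2142 and 2636 RPKM in control. Both knockout sums exceeded both control sums in each family, with ratios of means of 1.50 for the Fos family, 1.55 for the Jun family, and 1.55 for Atf3 and Maff together. On the scale of the reads listed, these ratios were 1.27, 1.31 and 1.31, and the Jun family sums overlapped. With 2 libraries against 2, a two-sided exact permutation test cannot go below p = 0.333, so no test was made of these sums.

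The split of the pool between the Fos and Jun families followed the replicate number more than the group. Fos family transcripts were 46.5% and 36.4% of the summed RPKM in knockout 1 and 2, against 45.3% and 37.9% in control 1 and 2. Jun family transcripts were 43.7% and 53.0% in knockout 1 and 2, against 44.2% and 52.3% in control 1 and 2. The group means of both shares differed by far less than their SD, with 41.4 ± 7.09% for the Fos family in knockout and 41.6 ± 5.20% in control (n = 2 each). The ratio of Fos family to Jun family RPKM was 1.06 and 0.687 in knockout, against 1.02 and 0.725 in control. These shares do not depend on library scaling. Within the pool, Fosb had a smaller share in both knockout libraries, 2.57% and 2.30%, than in the control libraries, 3.44% and 3.42%. Jund had 8.60% and 10.7% in knockout, against 11.2% and 13.8% in control, again with no overlap. Jun had 7.96% and 7.29% in knockout, against 8.68% and 9.98% in control. Shares of the other 6 genes overlapped between the groups. A larger share of one gene lowers that of the others, so these values are not independent.

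**Figure D3:**
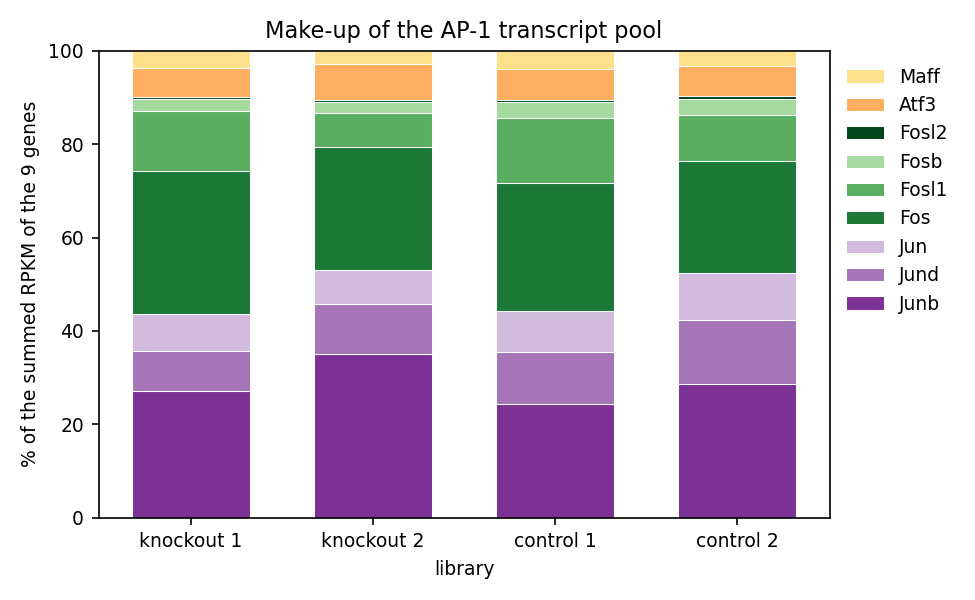
Share of each AP-1 gene in the summed RPKM of the 9 genes, in percent, for knockout 1, knockout 2, control 1 and control 2, with Jun family genes in purple, Fos family genes in green, and Atf3 and Maff in orange and yellow. The Jun family takes 53.0% in knockout 2 and 52.3% in control 2, and 43.7% in knockout 1 and 44.2% in control 1.

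Between libraries of the same group, 8 of the 9 genes were higher in knockout 2 than in knockout 1, and 6 of these were also higher in control 2 than in control 1. Jund was 1.66-fold higher in knockout 2 and 1.27-fold higher in control 2, each relative to replicate 1 of its group. Fosl1 went the other way in both groups, at 0.779-fold in knockout and 0.734-fold in control. Fos and Maff were higher in replicate 2 in knockout only, at 1.14-fold and 1.07-fold, and lower in control, at 0.916-fold and 0.896-fold.

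The other known dissociation-response genes shared the direction of the AP-1 genes. All 11 had a row, all 11 had a positive log2 fold change, 10 had both knockout values above both control values, and 0 passed limma over all genes. Their median log2 fold change was 0.66, 7 of 11 were higher at an unadjusted limma p under 0.05, and 5 were higher in the authors' deposited table. Over all genes the shares were 48.2% above 0, 25.0% apart, 10.3% at an unadjusted p under 0.05 and 3.59% in that table, and among the 737 abundant genes they were 80.9%, 58.2%, 33.0% and 11.1%. All 11 stayed positive on the scale of the reads listed, with a median of 0.42. Egr1, a zinc finger factor of the first response, had 2097 and 3384 RPKM in knockout, against 1515 and 2289 RPKM in control, and was the 1 gene whose groups overlapped. Btg1, an antiproliferative gene, had 500.3 and 608 RPKM in knockout, against 352 and 301 RPKM in control.

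Heat shock genes of this list were clear of control as well, with the authors' library sizes. Hspa8, the constitutive HSP70 chaperone, had 1999.9 and 2359 RPKM in knockout libraries, against 1419 and 1340.1 RPKM in control libraries. Hspb1, a small heat shock protein, had 5795 and 4915 RPKM in knockout, against 3262 and 1534 RPKM in control, and Hsp90ab1, the constitutive HSP90, had 1897 and 1754 RPKM in knockout, against 1545 and 1230.2 RPKM in control. Hspa1a, the inducible HSP70, had 715 and 810.3 RPKM in knockout, against 503 and 489 RPKM in control, although reads may be split between it and its near-identical copy Hspa1b. In the authors' deposited table the adjusted p was 0.0132 for Hspa8 and 0.0489 for Hspb1. It was 0.177 for Hsp90ab1, 0.586 for Hspa1a and 0.574 for Hspa1b. The summed RPKM of the 11 genes was 17295 and 19308 in knockout, against 11348 and 10193 in control. Time between dissection and lysis is not in the labels, and dissociation and genotype cannot be told apart here.

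Of 44 further immediate-early genes 43 had a row, and their signs were more mixed. Log2 fold changes were positive for 33 and negative for 10, with a median of 0.31, and 0 passed limma over all genes. Knockout libraries lay above control libraries for 21 genes and below for 7, against 25.0% and 26.2% of all genes, and 58.2% above among the 737 abundant genes. Gadd45b, a stress-response gene, had 885 and 1162 RPKM in knockout, against 572 and 516 RPKM in control. Errfi1, a feedback inhibitor of the EGF receptor, had 1712 and 2148 RPKM in knockout, against 1186 and 1330.1 RPKM in control. Myc, a growth-promoting factor, had 992 and 1006 RPKM in knockout, against 720.2 and 722 RPKM in control, and Arl4d, a small GTPase gene, had 1709 and 1643 RPKM in knockout, against 949 and 1003 RPKM in control. The mRNA decay factor gene Zfp36 had 1223 and 2056 RPKM in knockout, against 1115 and 1230.03 RPKM in control, and the kinase gene Sgk1 had 551 and 456 RPKM in knockout, against 419 and 418 RPKM in control. Going the other way, Dusp6, a phosphatase that inactivates ERK, had 38.3 and 31.9 RPKM in knockout, against 49.7 and 54.1 RPKM in control. Klf10, a Krüppel-like factor, had 36.0 and 38.2 RPKM in knockout, against 46.7 and 48.3 RPKM in control. Of the 43, the authors' deposited table called 4 higher and 0 lower, against 3.59% and 4.26% of all genes. On the scale of the reads listed the median of the 43 was 0.07 with 26 positive, and without knockout 2 it was 0.15.

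**Figure D4:**
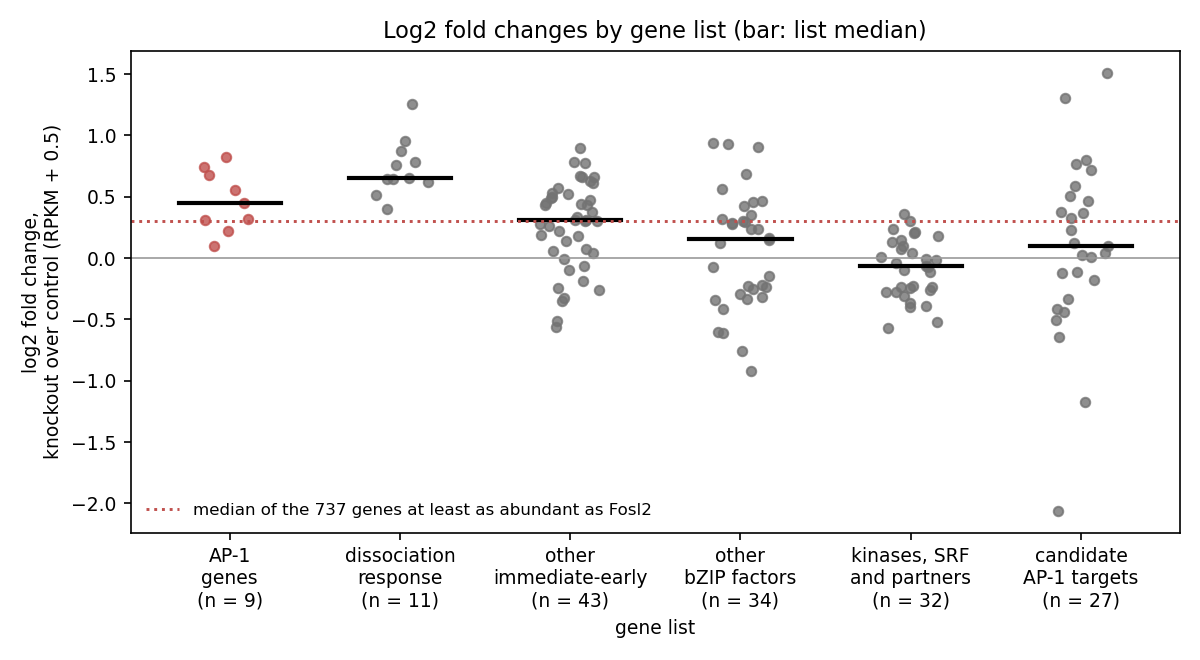
Log2 fold change of knockout over control on the log2(RPKM + 0.5) scale for each gene of 6 lists, with the list median as a bar and the median of the 737 genes at least as abundant as Fosl2 as a dotted line. Medians are 0.45 for the AP-1 genes, 0.66 for the dissociation response, 0.31 for other immediate-early genes, 0.16 for other bZIP factors, -0.07 for kinases with SRF and its partners, and 0.10 for candidate AP-1 targets.

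Kinases and nuclear factors that act on AP-1 genes had log2 fold changes of both signs. Of 33 genes 32 had a row, with 12 positive and 20 negative log2 fold changes, a median of -0.07, and 0 past limma over all genes or in the authors' deposited table. On the scale of the reads listed 4 of the 32 were positive and the median was -0.27, beside -0.20 for all genes. Map2k3, a kinase that activates p38, had 509.6 and 367 RPKM in knockout, against 512 and 417 RPKM in control. The ERK kinase genes Map2k1 and Map2k2 also had overlapping groups, with 107 and 84.4 RPKM in knockout, against 92.9 and 69.8 RPKM in control, for Map2k1, and 55.5 and 53.5 RPKM in knockout, against 50.5 and 59.1 RPKM in control, for Map2k2. Mapk7, which encodes ERK5, had 3.37 and 2.67 RPKM in knockout, against 5.37 and 4.10 RPKM in control, and Rps6ka2, an ERK-activated kinase gene, had 0.681 and 0.901 RPKM in knockout, against 1.10 and 1.63 RPKM in control. Mapk12, a p38 gene, had 3.01 and 3.64 RPKM in knockout, against 2.31 and 2.64 RPKM in control, and the serum response factor partner Elk4 had 29.0 and 21.6 RPKM in knockout, against 21.5 and 18.9 RPKM in control. Transcript levels say nothing of kinase activity, which was not measured.

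Other bZIP factors were divided between the directions. Of 40 genes 34 had a row, with 19 positive and 15 negative log2 fold changes, a median of 0.16 and 0 past limma over all genes. The median was -0.06 on the scale of the reads listed. It was 0.03 without knockout 1, 0.07 without knockout 2, 0.28 without control 1 and 0.03 without control 2. Crem, a cyclic AMP response factor, had 46.3 and 52.7 RPKM in knockout, against 28.4 and 23.1 RPKM in control, and was the 1 member of this list called higher in the authors' deposited table, at an adjusted p of 0.00255. Cebpb, a C/EBP factor of inflammation and differentiation, had 2213 and 2971 RPKM in knockout, against 1272 and 1409 RPKM in control, and Atf4, the factor of the integrated stress response, had 1076 and 1202 RPKM in knockout, against 812 and 729 RPKM in control. The unfolded protein response factor Xbp1 had 605 and 589 RPKM in knockout, against 461 and 429 RPKM in control. The small Maf gene Mafk had 321 and 311 RPKM in knockout, against 261 and 257 RPKM in control. The clock-output factors stood lower, Dbp with 1.87 and 1.84 RPKM in knockout, against 4.67 and 3.32 RPKM in control, and Tef with 4.25 and 4.23 RPKM in knockout, against 8.10 and 6.96 RPKM in control. These 2 were the members of the list called lower in the authors' deposited table, with adjusted p values of 0.000385 and 0.00422. Of all genes that table called 3.59% higher and 4.26% lower.

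Genes drawn up as candidate AP-1 targets differed widely among themselves. Of 28 genes 27 had a row, with 17 positive and 10 negative log2 fold changes, a median of 0.10 and 0 past limma over all genes. On the scale of the reads listed 12 were positive and the median was -0.10, and without knockout 1 it was 0.03. Of the 27, the authors' deposited table called 3 higher and 2 lower, against 3.59% and 4.26% of all genes. The metallothionein genes Mt1 and Mt2, which buffer zinc and copper, had the smallest p of those higher. Mt1 had 10288 and 16543 RPKM in knockout, against 4389.8 and 4768 RPKM in control, and Mt2 had 9053 and 11863 RPKM in knockout, against 4624 and 3785 RPKM in control. Tnc, encoding the matrix protein tenascin C, had 1.47 and 1.03 RPKM in knockout, against 7.19 and 6.29 RPKM in control. Ccnd1, encoding cyclin D1, had 10.2 and 7.37 RPKM in knockout, against 17.9 and 22.9 RPKM in control. Sqstm1, the autophagy receptor p62, had 2072 and 1795 RPKM in knockout, against 1758 and 1276 RPKM in control, and Lmna, encoding lamin A, had 750.2 and 748 RPKM in knockout, against 715 and 777 RPKM in control.

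The mean pattern of the 9 genes, as log2(RPKM + 0.5) centred on each gene's mean, was 0.07 and 0.40 in knockout 1 and 2, against -0.26 and -0.21 in control 1 and 2. Among 3997 other genes with a mean of at least 50 CPM, the nearest to this pattern over the 4 libraries were Aldh2, Osgep, Trip6, Myl12b and Rras. Their root mean square differences from it were 0.00630 to 0.0229 on the log2 scale, closer than the AP-1 genes themselves, at 0.0719 to 0.307. With 4 libraries such nearness is a description only. Aldh2, an aldehyde dehydrogenase, had 109.7 and 136 RPKM in knockout, against 86.6 and 89.2 RPKM in control.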

How the data were processed

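Per the submitters' processing notes, edgeR, featureCounts (Subread), STAR and Trim Galore were the tools, on mm10 (GRCm38), but their settings and the filter behind the 11603 genes are not stated there. The authors deposited per-library values that behave as RPKM: times the summed exon length they are whole multiples of 1 step per library, to within 0.01 reads for 100% of values. Recovered totals were 34101213 and 21757211 reads in knockout 1 and 2, and 26990809 and 22577330 in control 1 and 2, and the authors divided by 75.5% to 92.4% of these. Columns beginning with Ct were matched to control, and the others, beginning with Fl, to knockout. The authors deposited 1 q-value per gene for knockout against control, with no model stated.

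Here log2(RPKM + 0.5) was fitted with limma 3.58.1 (R 4.3.3), with a mean-variance trend, for all 4 libraries together, genotype being the sole term, with Benjamini-Hochberg adjustment and a threshold of 0.05. The 0.5 understates changes of low genes. CPM is RPKM times length in kilobases. List genes were matched by symbol or by RefSeq name and described by counts and medians, without a test of the list. Named are all AP-1 genes and, per list, the 4 with the highest mean CPM and the 2 with the smallest p in each direction at 5 CPM or more, except some that are not reported here. Members and lists were chosen with earlier results of these data known. TGACGT and TGACATCA, the Jun window and the comparison with 737 abundant genes were added after values were seen. The fit was tested on simulated data. Alternatives changed the pseudocount, filter, scaling, model, replicate block and libraries used.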

Additional observations from a re-analysis of the deposited data

How the results depend on the processing

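Of 108 values, 9 genes under 12 alternatives, 103 kept their direction and their side of the threshold, 4 changed sign and 1 passed. The filter, the fit without a trend and the replicate block leave each log2 fold change as it was. Under these alternatives the direction was therefore fixed in advance. With libraries scaled by the reads listed, the median log2 fold change of the AP-1 genes was 0.21, with Fosb at -0.14 and Jund at -0.017. Leaving out each library in turn gave -0.029 to 0.23 for Fosb, -0.14 to 0.58 for Jund and 0.40 to 0.58 for the median. It gave 0 to 1 genes called higher over the whole table, 0 called lower, and 0 AP-1 genes. Limma-voom on the recovered reads called 3 genes higher and 8 lower, and limma without a trend called 0 lower. With the replicate number as a block, 591 genes were called higher and 413 lower, among them 1 AP-1 gene, Fosl2, at an adjusted p of 0.0381. Deviations of replicate 1 libraries correlated across 9773 genes (r = 0.43), but the labels give no shared origin and there are 2 pairs. Whether libraries of the same number share a batch was not tested. The cause of these shifts was not tested, and the fits that leave a library out also have fewer libraries. No AP-1 gene was called lower under any of these alternatives. Counting error was at most 1.38% for any AP-1 gene in a library.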
